A study of Mus musculus with 7 samples.

Results

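Vip GABAergic neurons of the posterolateral cortical amygdala (plCoA) were examined by single-nucleus RNA sequencing, and 418 of the 4132 GABAergic nuclei, which were themselves found among 51115 nuclei, belonged to this population. A nucleus was a barcode with at least 1000 genes and at most 30000 unique molecular identifiers (UMIs, which count captured RNA molecules). It was taken as GABAergic when Gad1 and Gad2 together gave at least 3 UMIs and the glutamate transporter genes Slc17a7 and Slc17a6 together gave at most 1. It was taken as a Vip nucleus when it also held at least 2 Vip UMIs and at most 2 Sst UMIs. The nuclei were thus chosen by the UMIs of these 6 genes, whose levels are given below as a description. The comparison between domains did not leave them out and called Vip, which is not counted as a finding.

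Vip encodes vasoactive intestinal peptide, which a small group of cortical and amygdalar interneurons releases beside GABA. These interneurons arise mostly in the caudal ganglionic eminence (CGE) and express the serotonin receptor Htr3a, the RNA-editing family member Adarb2 and the homeodomain factor Prox1, whereas Sst and Pvalb interneurons arise in the medial ganglionic eminence (MGE) and depend on Lhx6 and Sox6. Vip cells of cortex are known for inhibiting other interneurons, above all Sst cells, and thereby releasing principal neurons from inhibition. Cortical Vip cells are commonly divided into those with the calcium-binding protein calretinin (Calb2) and those with the peptide cholecystokinin (Cck), the latter often carrying the cannabinoid receptor Cnr1 at their terminals.

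The study asked whether cell types differ along this olfactory region of the amygdala, between its anterior domain (aplCoA) and its posterior domain (pplCoA), the former of which it tied to avoidance and the latter to attraction. All mice were untreated C57BL6J wild type males of 8 weeks, and the labels separate the 2 groups by domain of origin. The domains came from separate pools and libraries, so handling that differed between them cannot be told apart from domain. Per the study's methods, the mice were housed alone and deprived of sensory input before sacrifice, tissue from several mice was pooled for each replicate, and nuclei were sorted by a DNA dye without selecting any cell type. Each domain had 3 replicates, in 7 libraries, as aplCoA replicate 1 was split over 2 libraries, which were added together.

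Libraries held 50812605 to 129624583 UMIs, and nuclei of different libraries shared 0.119% to 0.445% of their barcodes. Vip nuclei numbered 149, 27 and 64 in aplCoA replicates 1, 2 and 3 and 75, 53 and 50 in pplCoA replicates 1, 2 and 3. They held 2009 to 24975 UMIs each, 3499692 in all. aplCoA replicate 2 therefore rested on the fewest nuclei. The median Vip nucleus had 7789 UMIs and the median other GABAergic nucleus 9231.5, with Vip nuclei lower in all 6 replicates (exact sign-flip permutation test over pairs, p = 0.031 two-sided, as small as 6 pairs allow). The doublet caller marked 24 Vip nuclei (5.74%) and 363 other GABAergic nuclei (9.77%), all of which were kept here.

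Vip nuclei held between 2 and 111 Vip UMIs, with a median of 8 and quartiles of 4 and 18. At the edge of the rule, 53 nuclei had exactly 2 Vip UMIs, while 171 had 3 to 9 and 194 had at least 10. Another 239 GABAergic nuclei with at most 2 Sst UMIs had a single Vip UMI and were left out. Adarb2, the marker that the rule did not use, stood at 4061 CPM (depth-scaled counts, from the UMIs summed over the nuclei of a group) in the nuclei with 1 Vip UMI, 7191 CPM in those with 2 and 15198 CPM in those with at least 10. Prox1 went from 72.3 through 229.7 to 303.5 CPM over the same groups. Sox6, which marks MGE cells, went the other way, from 371 through 191 to 15.6 CPM. Nuclei just inside the rule thus lay between those outside it and those with many Vip UMIs. Of the Vip nuclei, 54 had 1 or 2 Sst UMIs, and 2 further nuclei were left out for having 3 or more.

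**Figure D1:**
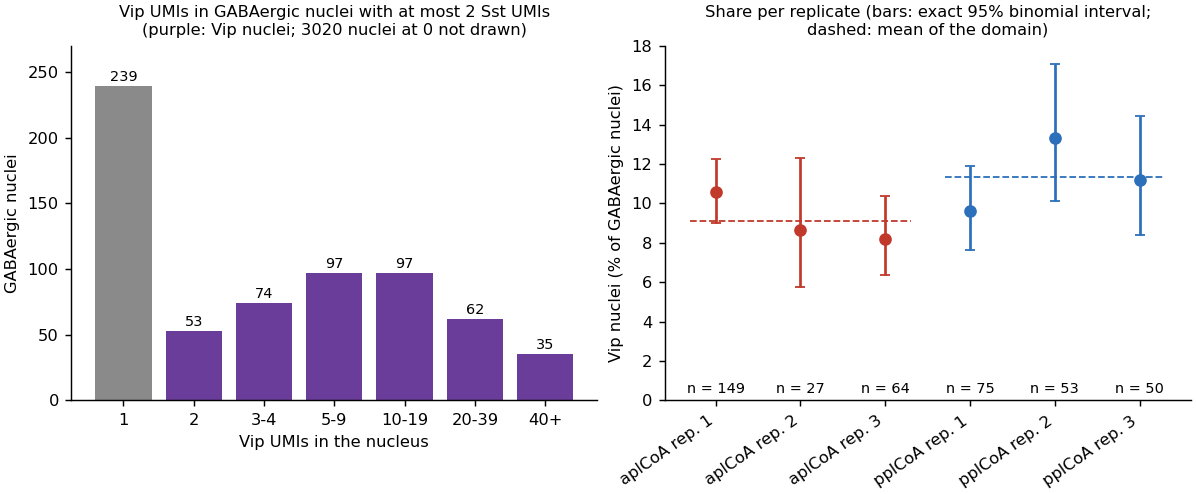
Left, number of GABAergic nuclei with at most 2 Sst UMIs by their number of Vip UMIs, with Vip nuclei in purple and the 3020 nuclei without a Vip UMI not drawn. Right, Vip nuclei as a percent of GABAergic nuclei in each replicate with exact (Clopper-Pearson) 95% binomial intervals, where 2 of the 3 pplCoA replicates lie above all 3 aplCoA replicates and pplCoA replicate 1 lies among them.

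The label was checked with lineage markers that the rule did not use. An Adarb2 UMI was found in 99.0% of Vip nuclei against 64.9% of other GABAergic nuclei, and a Prox1 UMI in 83.3% against 24.0%. Vip UMIs were also found outside the population: 7.03% of other GABAergic nuclei, 6.31% of glutamatergic nuclei and 6.40% of microglia had 1 or more, at median depths of 9231.5, 14535.5 and 3362 UMIs. The rule had taken nuclei with at least 2 Vip UMIs out of the other GABAergic nuclei, which limits their share, but not out of the other cell types. At least 2 Vip UMIs were seen in 0.538% of microglia. Vip was also present in free RNA, taken as barcodes of under 100 UMIs, at 72.2 to 461 CPM per replicate. It was highest in pplCoA replicates 2 and 3, at 248 and 461 CPM, against 72.2 to 207 CPM in the other replicates.

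Vip nuclei made up 10.6%, 8.63% and 8.21% of GABAergic nuclei in aplCoA replicates 1, 2 and 3 and 9.60%, 13.3% and 11.2% in pplCoA replicates 1, 2 and 3. The aplCoA mean was 9.13 ± 1.25% and the pplCoA mean 11.4 ± 1.86% (each SD, n = 3), and the domains overlapped through pplCoA replicate 1. The difference was -2.23 percentage points, and exact permutation did not detect it as a difference between domains (p = 0.2 two-sided, where 3 against 3 cannot go below 0.1). With nuclei thinned to 5000 UMIs each, GABAergic nuclei with a Vip UMI made up 10.9 ± 3.03% of the aplCoA and 12.8 ± 1.06% of the pplCoA ones (SD over 3 replicates each). In nuclei from a dissected domain, fewer cells of a type and poorer recovery of that type cannot be told apart.

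To find what sets Vip nuclei apart, their summed counts were compared with those of the other GABAergic nuclei of the same replicate by edgeR's quasi-likelihood test with Benjamini-Hochberg adjustment, for 9147 genes found in at least 10% of the nuclei of either class. The comparison called 2564 genes (28.0%) at an adjusted p under 0.05, 1351 of them (14.8%) higher in Vip nuclei and 1213 (13.3%) lower, and the median log2 fold change over all genes tested was 0.00. Values below are log2 fold changes of Vip over other GABAergic nuclei with their standard errors (SE), and "called" means past that threshold. A gene that reached 10% of nuclei in a single class had to stand high there, so for the lists most affected the members that reached it in both classes are also counted. The "other GABAergic nuclei" were a mixture of 455 nuclei with at least 3 Sst UMIs, 554 with at least 2 Lamp5 UMIs, 90 with at least 3 Meis2 UMIs, 30 with at least 2 Pvalb UMIs and 2585 with none of these.

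Most CGE-lineage genes stood high in Vip nuclei and most MGE-lineage genes low. Of 7 CGE-lineage genes, 6 were tested, and 5 were called higher with none lower (median log2 fold change 2.11). Of the 5 that passed the filter in both classes, 4 were called higher. Adarb2 was found at 11284, 12098 and 13803 CPM in the Vip nuclei of aplCoA replicates 1, 2 and 3 and at 13828, 13050 and 14745 CPM in those of pplCoA, against 2797 to 3677 CPM in other GABAergic nuclei. All 6 replicates of Vip nuclei lay above every replicate of the others, and the log2 fold change was 2.09 ± 0.07 (SE, n = 6, edgeR adjusted p = 1.41e-17). Prox1, which CGE interneurons need to mature, rose by 2.63 (SE 0.10, adjusted p = 3.55e-16), from 35.7 to 85.6 CPM up to 268 to 345 CPM. The PAS-domain factors Npas3 and Npas1 rose by 2.15 and 2.12, and the nuclear receptor Nr2f2 by only 0.44 (SE 0.10, adjusted p = 0.0014). Its paralog Nr2f1 gave -0.05 (adjusted p = 0.80) and was not called.

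Among 9 MGE-lineage genes, 6 were tested, 5 were called lower and 1 higher (median -1.89). The filter was passed in other GABAergic nuclei alone by 3 of them, among them Lhx6, and of the 3 that passed in both classes 2 were called lower and 1 higher. Lhx6, the factor that specifies MGE interneurons, lay between 0 and 3.85 CPM in Vip nuclei and between 25.2 and 33.8 CPM in the others, and fell by 3.97 (SE 0.38, adjusted p = 5.50e-09). Sox6 fell by 3.38 and Satb1 by 1.97, whereas Maf fell by only 0.35 (adjusted p = 0.038). Elfn1, a synaptic adhesion protein best known from Sst cells, was the member called higher, by 0.62 (SE 0.10, adjusted p = 3.61e-05). Of 10 genes shared by GABAergic neurons, 8 passed the filter in both classes, of which 4 were called higher and 2 lower. The homeobox factors Dlx1 and Dlx2, which keep up GABAergic identity, rose by 1.11 and 1.496. Abat, which breaks GABA down, fell by 0.66 (SE 0.10).

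**Figure D2:**
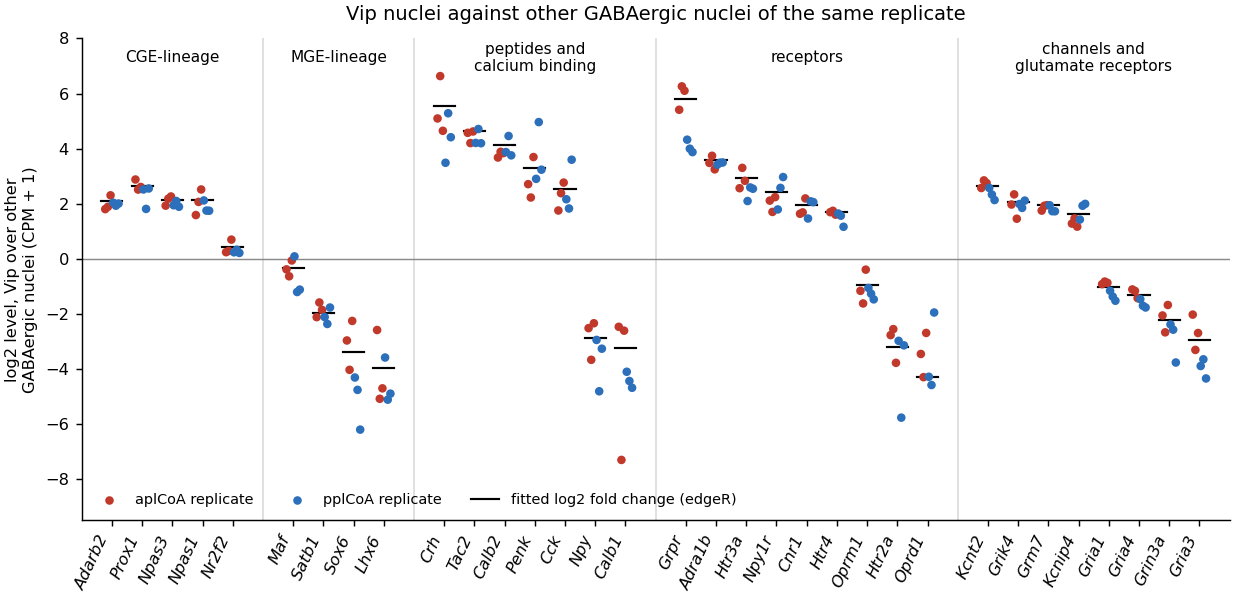
Log2 ratio of the level (CPM + 1) in Vip nuclei to that in other GABAergic nuclei for named genes, with a point for each of the 6 replicates (red, aplCoA; blue, pplCoA) and a line at the edgeR log2 fold change. The 5 CGE-lineage genes drawn lie above 0 in all replicates, the MGE-lineage genes drawn lie below 0 in all but for Maf, and Grpr has its 3 aplCoA points above its 3 pplCoA points.

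Peptide precursors were among the genes furthest above the other GABAergic nuclei. Of 18 precursors listed beside Vip and Sst, 7 were tested, of which 6 were called higher and Npy lower (median 2.52). Crh, Tac2 and Penk passed the filter through Vip nuclei alone and Npy through the others alone, which leaves Cck, Igf1 and Pnoc, all 3 called higher. Crh, which encodes corticotropin-releasing hormone, stood at 107, 157 and 49.4 CPM in aplCoA replicates 1, 2 and 3 and at 33.2, 87.2 and 99.5 CPM in pplCoA replicates, against 0.595 to 3.72 CPM in other GABAergic nuclei. Its spread between replicates of Vip nuclei was wide, but no replicate of the others came near it, and it rose by 5.54 (SE 0.24, adjusted p = 2.92e-15). Tac2, which encodes neurokinin B, lay between 131 and 368 CPM against 6.18 to 19.2 CPM and rose by 4.65 (SE 0.10, adjusted p = 6.07e-21). Penk, the enkephalin precursor, rose by 3.30 (SE 0.21) and Cck by 2.52 (SE 0.16). Pnoc, the nociceptin precursor, rose by 0.89 and the growth factor Igf1 by 1.80. Npy, a peptide of Lamp5 and many Sst cells, fell by 2.89 (SE 0.25).

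Not every Vip nucleus held these peptides. A Tac2 UMI was found in 52.9% of Vip nuclei, a Cck UMI in 42.3%, a Penk UMI in 34.4% and a Crh UMI in 33.3%. The same shares were 5.74%, 24.0%, 7.57% and 1.45% in other GABAergic nuclei and 1.78%, 12.6%, 2.01% and 0.340% in microglia, whose median depth was lower. Among these peptides, Cck was therefore the one for which Vip nuclei stood least clear of microglia. Glutamatergic nuclei, whose median depth was 14535.5 UMIs, had it in 32.1%, at 31.3 CPM against 35.4 CPM in microglia.

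Of 26 genes known from cortical Vip subtypes, 13 were tested and 13 were called higher (median 3.47), but 8 of these passed the filter through Vip nuclei alone, where they had to be high. The 5 that passed in both classes, Cck, Cnr1, Npy2r, Igf1 and Synpr, were called higher. The calretinin gene Calb2 was found at 113, 115 and 153 CPM in aplCoA replicates 1, 2 and 3 and at 81.6, 139 and 136 CPM in pplCoA replicates. Other GABAergic nuclei held 4.63 to 9.83 CPM of it, well below every replicate of Vip nuclei, and the log2 fold change was 4.12 ± 0.13 (SE, edgeR adjusted p = 1.36e-17). Cnr1 was seen in 87.8% of Vip nuclei, 39.2% of the other GABAergic nuclei and 3.51% of microglia, and rose by 1.94 (SE 0.09). Cxcl14, a chemokine of CGE interneurons, rose by 3.65, the synaptic vesicle protein Synpr by 3.47 and the secreted protein Crispld2 by 5.56. The 13 that were not tested included Chat, which makes acetylcholine and had a UMI in 3.35% of Vip nuclei.

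By the rule for named genes, 12 genes that rose most and 12 that fell most were taken from those of equal direction in all 6 replicates, where 29.1% of all genes tested had an equal direction. These needed at least 20 UMIs per replicate in the higher class, which left out Grpr and Crispld2. Beside Crh, Tac2, Calb2, Cxcl14, Synpr and Penk, the genes that rose included Plpp4 (5.45, SE 0.13), which encodes a phospholipid phosphatase. It stood at 454, 419 and 481 CPM in aplCoA replicates and 532, 637 and 517 CPM in pplCoA replicates, against 6.24 to 27.5 CPM in other GABAergic nuclei. Next came the long non-coding transcript Gm5087 (4.34), the thyrotropin receptor Tshr (4.21), the guidance molecule Sema5b (3.85), the matrix protein Fbln2 (3.79) and the alpha-1B adrenoceptor Adra1b (3.60). Gm5087 and Synpr are neighbours on chromosome 14 (mm10), at 13157388-13284638 on the minus strand and 13284780-13616340 on the plus strand. A Tshr UMI was seen in 24.6% of Vip nuclei and 3.34% of other GABAergic nuclei, and a Plpp4 UMI in 83.0% and 5.87%. Of the genes named here for rising, Sema5b, Adra1b and Synpr passed the filter in both classes and the others through Vip nuclei alone, where they had to be high.

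The 12 genes that fell most were nearly absent from Vip nuclei, and all 12 passed the filter through the other GABAergic nuclei alone. Ndnf, a secreted factor of layer 1 neurogliaform cells, gave 3.08, 22.9 and 3.53 CPM in aplCoA replicates 1, 2 and 3 and 3.02, 2.72 and 0 CPM in pplCoA replicates, against 89.3 to 125 CPM in other GABAergic nuclei. aplCoA replicate 2 was the highest of these and still lay below every replicate of the others (log2 fold change -4.47, SE 0.25, adjusted p = 2.20e-13). The delta opioid receptor Oprd1 summed to 3 UMIs over all Vip nuclei and 691 over the others, the collagen receptor Ddr2 to 3 and 803, the laminin subunit Lama1 to 4 and 874, Coro6 to 7 and 1393 and Shroom4 to 5 and 971. Tmem132c (-4.07, SE 0.25) and its antisense transcript Tmem132cos (-4.65, SE 0.27) overlap on chromosome 5. The non-coding transcripts Gm47471, 6530411M01Rik and Gm31218 were also among them, Gm47471, which lies antisense within Ptprm, with 1 UMI in Vip nuclei and 435 in the others. Of 18 genes known from other GABAergic classes, 9 were tested, 7 of which were called lower and Penk higher (median -2.77), though only Reln and Tshz1 passed the filter in both classes and 6 passed in the other GABAergic nuclei alone. Those called lower included Reln (-3.47), Calb1 (-3.25), Lamp5 (-2.77) and Nos1 (-1.84).

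Receptors for peptides and amines separated into genes that rose and genes that fell. Of 31 peptide receptor genes 8 were tested, 6 called higher and 2 lower (median 0.79). In the 4 that passed the filter in both classes the calls were 3 and 1. Another 3, Grpr among them, passed through Vip nuclei alone, where they had to be high, and Oprd1 passed through the other GABAergic nuclei alone. Grpr, the receptor of gastrin-releasing peptide, stood at 67.8, 121 and 77.6 CPM in aplCoA replicates and 68.0, 65.4 and 59.7 CPM in pplCoA replicates, against 0.145 to 3.16 CPM in other GABAergic nuclei. A Grpr UMI was seen in 35.4% of Vip nuclei and 1.13% of other GABAergic nuclei. Grpr rose by 5.80 (SE 0.30, edgeR adjusted p = 7.52e-14), but passed the filter through Vip nuclei alone, where it had to be high. The neuropeptide Y receptors Npy1r and Npy5r rose by 2.44 and 2.24, while the opioid receptors Oprm1 and Oprd1 fell by 0.97 and 4.28. The orexin receptor Hcrtr2 and the PACAP receptor Adcyap1r1 rose by 0.80 and 0.78. The receptors of Vip itself were scarce in Vip nuclei, with a UMI of Vipr1 in 3.11% and of Vipr2 in 0.718%, and were too low to be tested.

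Of 26 genes for monoamine and acetylcholine receptors, 13 were tested, 8 called higher and 4 lower (median 0.38), and of the 10 that passed the filter in both classes 7 and 2. Adra1b was found at 314, 374 and 340 CPM in aplCoA replicates and 360, 403 and 478 CPM in pplCoA replicates, above the 27.1 to 41.5 CPM of other GABAergic nuclei in all 6. Its close relative Adra1a fell by 0.65 (SE 0.12). Serotonin receptors also divided. The ion channel Htr3a rose by 2.92 (SE 0.19), but passed the filter through Vip nuclei alone (a UMI in 23.0% against 4.01%), where it had to be high. Htr4 rose by 1.69 and Htr2c by 0.38, whereas Htr2a fell by 3.20 (SE 0.22) and Htr1f by 1.40. The muscarinic receptor Chrm3 rose by 1.05 and Chrm2 fell by 1.09.

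Genes of glutamate receptors, ionotropic and metabotropic, differed in both directions. Of 24 such genes, 22 were tested, with 7 called higher, 8 lower and 7 not called (median -0.02). Among AMPA receptor subunits, Gria3 fell by 2.95 (SE 0.17), Gria4 by 1.34 and Gria1 by 1.01, while Gria2 gave -0.17 (adjusted p = 0.058). Gria1 lay between 1101 and 1239 CPM in the 6 replicates of Vip nuclei and between 2173 and 3215 CPM in the others. The NMDA receptor subunits Grin3a and Grin2a fell by 2.22 and 1.54, and Grin2b and Grin2d rose by 0.51 and 0.62. The kainate receptor subunit Grik4 rose by 2.05 and the presynaptic metabotropic receptor Grm8 by 1.72, and Grm7 lay between 3640 and 4756 CPM against 1084 to 1437 CPM. The postsynaptic Grm5 fell by 1.13.

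All 12 GABA-A receptor subunit genes were tested, with 3 called higher and 7 lower (median -0.40), or 3 and 5 of the 10 that passed the filter in both classes. Gabrb2, a subunit of common synaptic forms, rose by 0.54, whereas Gabra5 and Gabrd, which are known from extrasynaptic receptors, fell by 0.79 and 1.63 and Gabrg1 fell by 2.24. Of 30 ion channel genes, 9 were called higher, 13 lower and 8 not (median -0.16). The sodium-activated potassium channel Kcnt2 rose by 2.64 (SE 0.09), from 177.5 to 276 CPM up to 1057 to 1392 CPM. The Kv4 partners Kcnip4 and Kcnip1 rose by 1.64 and 1.12 while the Kv4 channel gene Kcnd2 fell by 0.90 and Kcnd3 rose by 0.67. Kcna1, Scn1a and Kcnc2, genes tied to fast spiking, fell by 1.06, 0.58 and 0.51. Of 9 genes for calcium-binding and related proteins, 8 were tested, with 5 called higher and 2 lower, or 3 and 1 of the 5 that passed the filter in both classes. Those called higher included Rgs12 (1.81) and Hpcal1 (1.599), and those called lower included the calbindin gene Calb1.

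Transcripts tied to recent activity were few. Of 16 such genes only Egr1, Nr4a1 and Homer1 passed the filter, with log2 fold changes of 1.65, 1.07 and 0.45. Egr1 passed through Vip nuclei alone, and the other two, which passed in both classes, were called higher. Their list summed to 218 to 351 CPM in Vip nuclei and 133 to 238 CPM in other GABAergic nuclei.

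Defining markers of several other cell types were at or near 0 in Vip nuclei, while some other genes of their lists were not. Over all 418 nuclei the endothelial genes Cldn5 and Flt1 and the glutamatergic gene Neurod6 had 0 UMIs, which allows up to 3 UMIs each, and Aqp4, Gja1, Mog and Cspg4 had 11, 12, 13 and 7. The astrocyte list summed to 161 to 278 CPM in Vip nuclei and 150 to 265 CPM in the others, and of its 6 genes 1 passed the filter in both classes and was called higher. The oligodendrocyte list (6 genes) summed to 36.5 to 131 and 44.9 to 97.5 CPM, with none of 3 tested called. The microglia list (5 genes) summed to 52.4 to 245 and 120 to 174 CPM, with 1 of 2 tested called, P2ry12, lower. Of the 4 genes listed for oligodendrocyte precursors, Ptprz1 stood at 1127 to 1419 CPM in Vip nuclei against 205 to 310 CPM (log2 fold change 2.41, SE 0.07), while Vcan fell by 2.82 and Pdgfra summed to 21 UMIs. Ptprz1 passed the filter in both classes and Vcan through the other GABAergic nuclei alone, where it had to be high. That list summed to 1130 to 1422 CPM in Vip nuclei and 255 to 383 CPM in the others. Of 8 glutamatergic markers, which summed to 362 to 479 and 345 to 399 CPM, 2 were tested, and Camk2a was called higher by 0.36. Of 7 glutamatergic subtype genes that differed between the domains in earlier results of these data, Gulp1 alone passed the filter in both classes, with a called log2 fold change of 0.70.

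Set against single classes, Vip nuclei stood far from Sst and Pvalb nuclei in the CGE-lineage genes Adarb2 and Prox1. In these genes they stood nearer to Lamp5 nuclei, which also arise in the CGE. Adarb2 stood at 12728 CPM in Vip, 4648 in Lamp5, 1954 in Meis2, 151 in Sst and 31.9 in Pvalb nuclei. Prox1 followed with 297 CPM in Vip and 120 in Lamp5 nuclei against 2.58 in Sst and 0 in Pvalb nuclei. Synpr reached 2590 CPM in Vip nuclei, 327 in Sst and 35.5 in Lamp5 nuclei. Reln, which Lamp5 neurogliaform cells secrete, ran the other way, with 2187 CPM in Lamp5 and 100 CPM in Vip nuclei. Cnr1 stood at 444 CPM in Vip and 118 CPM in Lamp5 nuclei. These are sums over the nuclei of a class over all replicates, given without a test because UMIs of single genes defined the classes. The 2585 GABAergic nuclei in none of these classes are not set beside them here. Whether Vip nuclei stood nearer to some of those is therefore not shown.

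Whether the calretinin and cholecystokinin subtypes known from cortex could be seen in plCoA was asked by counting nuclei with a UMI of each gene. Of the 418 Vip nuclei, 127 (30.4%) had Calb2 but no Cck, 103 (24.6%) Cck but no Calb2, 74 (17.7%) both and 114 (27.3%) neither. Cck also stood at 35.4 CPM in microglia and 29.1 CPM in oligodendrocytes, against 183 CPM in Vip nuclei. How many of the Cck UMIs counted here were such background was not tested. Because a deeper nucleus is more likely to show any gene, the test was made on the 341 nuclei with at least 5000 UMIs, each thinned to that number. A Cck UMI was then found in 29.9 ± 6.70% of nuclei with Calb2 and 39.3 ± 11.9% of those without (SD, n = 6 replicates). The differences in aplCoA replicates 1, 2 and 3 were -7.92, -1.35 and -10.5 percentage points and those in pplCoA replicates -3.17, -6.47 and -26.9. They were negative in 6 of 6, with a mean of -9.39 ± 9.17 (SD; p = 0.031 two-sided by exact sign-flip permutation, adjusted over the 3 gene pairs 0.047). At 3000 UMIs the difference was -5.45 with the same p, negative in 6 of 6. It lost its call at a higher depth and without doublets: without thinning it was -8.48 (p = 0.125), at 8000 UMIs -4.38 (p = 0.34) and without marked doublets -8.80 (p = 0.0625), each by the same exact test.

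Cnr1 was found more often in nuclei with Cck. A Cnr1 UMI was present in 86.1 ± 5.18% of thinned nuclei with Cck and 76.6 ± 4.73% of those without (SD, n = 6), a difference of 9.49 ± 4.72 percentage points that was positive in 6 of 6 (p = 0.031 two-sided, adjusted 0.047, by the same exact test). In nuclei with Calb2 the share was 80.3 ± 11.7% and in those without 79.6 ± 2.75%, a difference of 0.693 ± 10.8 (exact permutation, p = 0.875). No difference was detectable at this depth, and whether it differs from that seen with Cck was not tested. The difference with Cck was 13.0 at 3000 UMIs (exact test, p = 0.031) and lost its call at 8000 UMIs, where it was 4.10 (exact test, p = 0.50), and without thinning, where it was 3.72 (exact test, p = 0.0625) and positive in 5 of 6.

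The nuclei that held Calb2 alone and Cck alone differed in other genes, which were chosen with earlier results known and are described without a test. Penk stood at 244, 107 and 165 CPM in the Calb2 nuclei of aplCoA replicates 1, 2 and 3 and 97.6, 146 and 91.9 CPM in those of pplCoA, against 96.7, 27.5, 19.02, 18.2, 73.4 and 21.3 CPM in the Cck nuclei of the same replicates. It was higher in Calb2 nuclei in 6 of 6 replicates. The Calb2 groups held 41, 7 and 26 nuclei in aplCoA replicates 1, 2 and 3 and 20, 19 and 14 in pplCoA replicates. The Cck groups held 45, 6 and 12 and then 14, 11 and 15 nuclei, so low levels of a single replicate rest on few UMIs. Tac2 was higher in Cck nuclei in 6 of 6, with 308 to 647 CPM against 83.4 to 223 CPM. The same direction in 6 of 6 held for Cnr1 (674 against 334 CPM), Cxcl14 (238 against 102), Npas1 (111 against 44.5), Adarb2 (16975 against 11998) and Reln (112 against 47.1, the latter 28.9 without aplCoA replicate 1), all summed over replicates. Crh, Htr3a, Igf1, Prox1, Grpr, Crispld2 and Vip itself were higher in Calb2 nuclei in 3 replicates and lower in 3. Htr4 and Synpr were higher in Calb2 nuclei in 4 replicates and lower in 2. Npy2r was higher in Cck nuclei in 4 replicates, and Adra1b, Smoc1 and Npy1r in 5. How many of all genes keep the same direction in 6 of 6 between these small groups was not counted. Chat stood at 5.19, 0 and 4.13 CPM in the Calb2 nuclei of aplCoA replicates and 41.8, 6.93 and 0 CPM in those of pplCoA, and in Cck nuclei it was found in aplCoA replicate 1 alone, at 2.84 CPM. Its summed level of 11.3 CPM in Calb2 nuclei rested on pplCoA replicate 1, without which it was 4.29 CPM. Median depth was 8117 UMIs in Calb2 nuclei and 7302 in Cck nuclei.

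**Figure D3:**
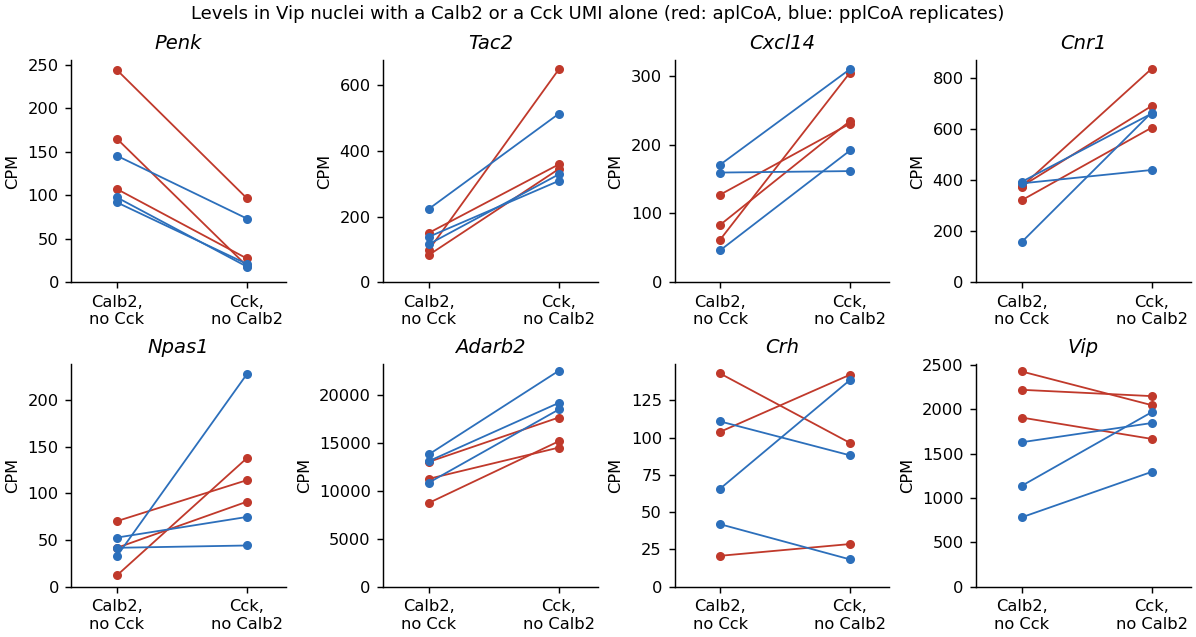
Level in CPM of 8 genes in Vip nuclei with a Calb2 UMI and no Cck UMI (left) and with a Cck UMI and no Calb2 UMI (right), with lines joining the same replicate (red, aplCoA; blue, pplCoA). All 6 lines fall for Penk and rise for Tac2, Cxcl14, Cnr1, Npas1 and Adarb2, and lines run both ways for Crh and Vip.

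The domains were then compared within Vip nuclei, 240 from aplCoA and 178 from pplCoA. Of 8686 genes tested by edgeR's quasi-likelihood test, 38 (0.437%) were called, 19 (0.219%) higher in aplCoA and 19 (0.219%) higher in pplCoA, and 871 had an unadjusted p under 0.05. DESeq2 called 10 genes, leaving out a replicate gave 7 (without pplCoA replicate 2) to 49 (without pplCoA replicate 3), and each named gene lost its call under at least 1 alternative. Replicates were fully separated by domain for 13.7% of all genes tested. In the other GABAergic nuclei of the same replicates, 865 of 9227 genes (9.37%) were called, 4.48% higher in aplCoA and 4.9% lower. Both comparisons used the same replicates, and the other GABAergic nuclei numbered 3714. Vip itself was among the 38 genes, at 1876, 2196 and 2286 CPM in aplCoA and 846, 1258 and 1681 CPM in pplCoA replicates, but its UMIs chose the nuclei and it is not counted as a finding.

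Ptprm (chromosome 17, 66666947-67354457, mm10), a receptor phosphatase of cell contacts, stood at 119, 55.7 and 79.4 CPM in aplCoA replicates and 25.7, 30.0 and 33.2 CPM in pplCoA replicates. The domains did not overlap, and the log2 fold change of aplCoA over pplCoA was 1.63 ± 0.27 (SE, n = 3 against 3, edgeR adjusted p = 0.0056). Gria3, on chromosome X, stood at 167, 78.6 and 123 CPM against 54.4, 59.9 and 39.8 CPM (1.28, SE 0.23, adjusted p = 0.0066). Alk, the anaplastic lymphoma kinase receptor, stood at 146, 102 and 176 CPM against 64.98, 38.1 and 99.5 CPM (1.09, SE 0.23, adjusted p = 0.024). Its highest pplCoA replicate nearly reached its lowest aplCoA replicate. Sox6 stood at 57.8, 26.2 and 98.8 CPM against 25.7, 19.1 and 6.63 CPM, with aplCoA replicate 2 barely above pplCoA replicate 1 (1.67, SE 0.36, adjusted p = 0.024). It had a UMI in 24 of 240 aplCoA nuclei (10.0%) and 10 of 178 pplCoA nuclei (5.62%), and so reached the 10% needed to be tested only in the domain where it was high. With library 2 of aplCoA replicate 1 alone, edgeR gave 0.91 for Ptprm (adjusted p = 0.26), 0.63 for Gria3 (adjusted p = 0.45) and 0.87 for Alk (adjusted p = 0.14). Sox6 gave 1.77 and stayed called (edgeR adjusted p = 0.029). The other named genes higher in aplCoA were the calcium pump Atp2b4 (2.76), the zinc finger factor Tshz2 (2.17), the respiratory chain subunit Ndufb10 (1.62), the lipid peroxidase Gpx4 (1.35), the cadherin Cdh9 (1.23), the ribosomal protein gene Rps27a (1.12), the sarcoglycan Sgcz (1.00) and the microtubule regulator Stmn1 (1.00), all by edgeR with adjusted p between 0.024 and 0.036. Of the 12 named, 4 passed the filter in aplCoA nuclei alone, the domain where they were high, namely Sox6, Atp2b4 (12.1% of aplCoA against 2.25% of pplCoA nuclei), Tshz2 (13.75% against 3.37%) and Ndufb10 (29.6% against 9.55%). In other GABAergic nuclei of the same replicates, called differences were also found for Atp2b4 (0.64), Ndufb10 (0.71), Gpx4 (0.48), Rps27a (0.51), Sgcz (0.30) and Stmn1 (0.66), and not for Tshz2 (0.01) or Cdh9 (0.30).

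The differences in Ptprm, Alk, Gria3 and Sox6 rested in part on the nuclei at the edge of the rule, and the other named genes were not split by Vip UMIs. Among nuclei with exactly 2 Vip UMIs, 30 from aplCoA and 23 from pplCoA, Ptprm stood at 485 against 40.2 CPM and Alk at 492 against 127 CPM. Gria3 stood at 408 against 53.6 CPM and Sox6 at 277 against 40.2 CPM. The pplCoA levels there rested on 6 UMIs for Ptprm, 19 for Alk, 8 for Gria3 and 6 for Sox6. Among nuclei with at least 10 Vip UMIs, 136 and 58, the levels were 23.6 against 41.9 CPM for Ptprm and 40.3 against 67.1 for Alk. They were 81.3 against 35.6 for Gria3 and 12.2 against 25.2 for Sox6. In these sums over replicates 3 of the 4 genes stood higher in pplCoA, and the direction was not tested. They rested on few UMIs, 31 and 20 for Ptprm, 53 and 32 for Alk, 107 and 17 for Gria3 and 16 and 12 for Sox6. Replicate 1 gave most of the nuclei with exactly 2 Vip UMIs, 19 of 30 in aplCoA and 16 of 23 in pplCoA. When at least 3 Vip UMIs were required, 7 genes were called in all. The log2 fold change was then 0.71 for Ptprm (edgeR adjusted p = 0.48), 0.77 for Alk (adjusted p = 0.31) and 0.89 for Gria3 (adjusted p = 0.15), and Sox6 fell under the filter. In other GABAergic nuclei Ptprm stood at 1029 to 1159 CPM, Alk at 547 to 798, Gria3 at 683 to 831 and Sox6 at 446 to 563 CPM, each well above its level in Vip nuclei. The 18 genes of other GABAergic classes summed to 429, 452 and 291 CPM in the Vip nuclei of aplCoA replicates and 249, 234 and 219 CPM in those of pplCoA. These sums include Penk, which was called higher in Vip nuclei. Penk alone gave 136, 78.6 and 113 CPM in aplCoA and 57.4, 109 and 73.0 CPM in pplCoA replicates. The part of the 18 genes in these calls was not tested. At 3 to 9 Vip UMIs, in 74 and 97 nuclei, all 4 were higher in aplCoA, with Ptprm at 99.3 against 17.0 CPM.

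**Figure D4:**
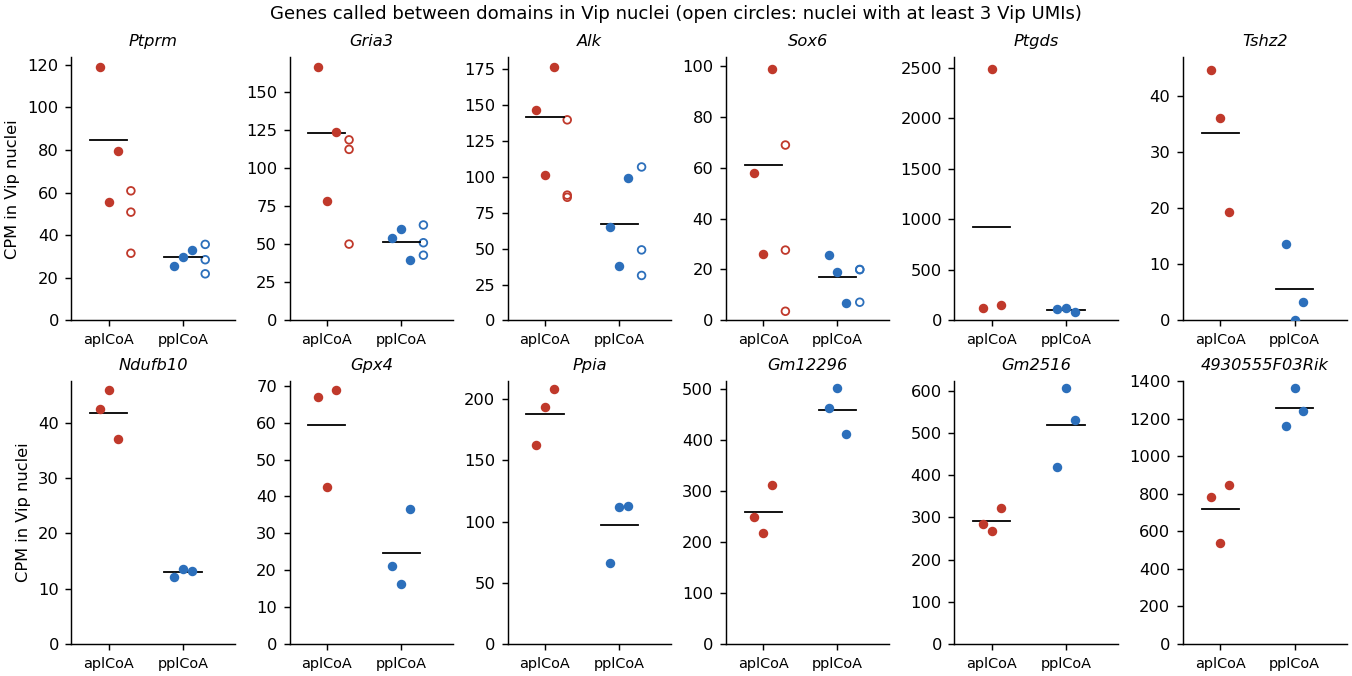
Level in CPM in Vip nuclei of aplCoA (red) and pplCoA (blue) replicates for 12 of the 38 called genes, with a line at the mean of each domain and, for Ptprm, Gria3, Alk and Sox6, open circles for nuclei with at least 3 Vip UMIs. Filled points of the domains overlap for Ptgds alone, in which aplCoA replicate 2 stands apart at 2484 CPM.

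Genes called higher in pplCoA were mostly non-coding. Of 19, 14 (73.7%) were annotated as non-coding, against 8.11% of all genes tested. Gm12296 stood at 248, 216 and 310 CPM in aplCoA replicates and 462, 501 and 411 CPM in pplCoA replicates (log2 fold change -0.87, SE 0.16, edgeR adjusted p = 0.0066). Gm2516 stood at 285, 269 and 323 CPM against 419, 607 and 531 CPM (-0.86, SE 0.16, adjusted p = 0.0066). In both, every pplCoA replicate lay above every aplCoA replicate. In other GABAergic nuclei the same comparison gave -1.13 (adjusted p = 0.0020) for Gm12296 and -0.36 (adjusted p = 0.040) for Gm2516. The other named transcripts higher in pplCoA were Gm45356 (-2.51), Gm17135 (-1.88), Pcsk2os2 (-1.21), Gm12153 (-1.17), Gm11146 (-1.05), 1700109K24Rik (-1.005), Gm44129 (-0.99), 4932443L11Rik (-0.87), Gm11149 (-0.86) and the autophagy gene Atg16l2 (-0.84), with adjusted p between 0.0089 and 0.048. Of the 12 named, Gm45356 (11.8% of pplCoA against 3.33% of aplCoA nuclei) and Gm17135 (16.3% against 6.25%) passed the filter in pplCoA nuclei alone, the domain where they were high. The other GABAergic nuclei gave called differences of -0.70 for Gm17135, -0.71 for Gm11146, -0.89 for 1700109K24Rik, -0.86 for Gm44129, -0.72 for 4932443L11Rik, -0.51 for Gm11149 and -0.69 for Atg16l2, and an uncalled -0.30 for Pcsk2os2.

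Ptgds, the prostaglandin D synthase of meninges and choroid plexus, had the largest fold change, 3.01 (SE 0.59, adjusted p = 0.011), and is named here after its values were seen. It stood at 118, 2484 and 155 CPM in aplCoA replicates and 110, 123 and 79.6 CPM in pplCoA replicates, so that aplCoA replicate 2 alone was high and the domains overlapped. The 8 vascular and meningeal markers summed to 85.2 CPM in that replicate, 1.76 and 11.6 CPM in the other aplCoA replicates and 0 to 7.56 CPM in pplCoA replicates. Their part in the result was not tested.

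The ratio of a gene's level in free RNA to its level in Vip nuclei largely followed the direction of the calls. The shares of mitochondrial and ribosomal protein transcripts were higher in aplCoA replicates. The level in free RNA itself went both ways between domains. For Gria3 its mean was 597 CPM in aplCoA and 689 CPM in pplCoA replicates, and for Gpx4 232 and 193 CPM. Of the 18 genes called higher in aplCoA other than Vip, 17 had a higher level in free RNA than in Vip nuclei, as did 0 of the 19 called higher in pplCoA and 58.3% of all genes tested. Mitochondrially encoded genes summed to 386, 446 and 309 CPM in the Vip nuclei of aplCoA replicates and 174, 210 and 206 CPM in those of pplCoA. The mean mitochondrial share of UMIs was 0.0380 ± 0.00687% in the aplCoA and 0.0196 ± 0.00197% in the pplCoA replicates (SD, n = 3 each), and the median ribosomal share 0.420 ± 0.0124% and 0.311 ± 0.0313%, without overlap in either (p = 0.1 two-sided by exact permutation, as small as this design allows). Of the 9 mitochondrially encoded genes tested, 9 were positive, with log2 fold changes of 0.54 to 1.44, and 0 were called. The filter was passed in both domains by 4 of them and in aplCoA nuclei alone by 5, the domain where these were high. Median depth of Vip nuclei was 9083 ± 1655 UMIs for aplCoA and 6864 ± 1129 for pplCoA (SD, n = 3 each, exact permutation test, p = 0.2). The part of free RNA and depth in the calls between domains was not tested.

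**Figure D5:**
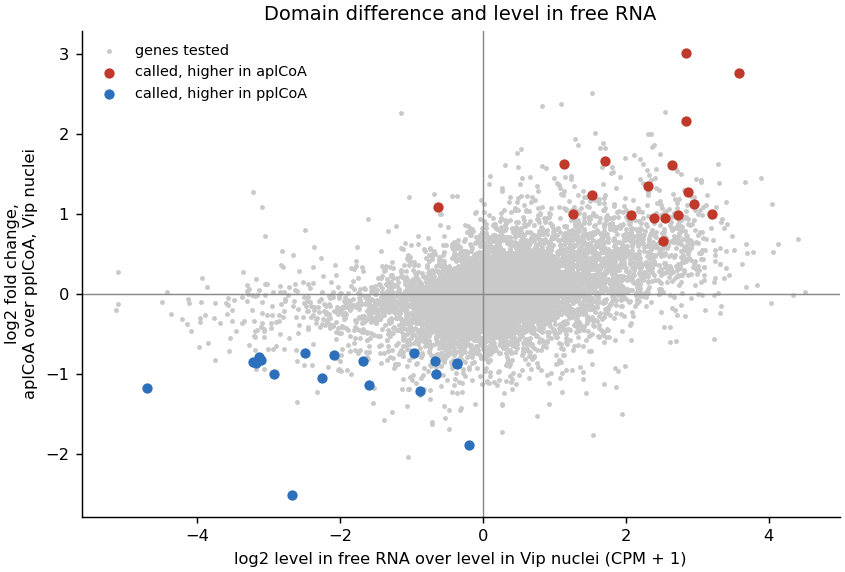
For each gene tested between domains in Vip nuclei, the log2 fold change of aplCoA over pplCoA (vertical) against the log2 ratio of its level in free RNA to its level in Vip nuclei (horizontal, CPM + 1). Called genes higher in aplCoA (red, without Vip) lie right of 0 in 17 of 18 cases, and the 19 called genes higher in pplCoA (blue) all lie left of 0.

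With 0.437% of all genes called between domains, a short list is likely to hold no call, and the lists are given here by their values. None of 6 CGE-lineage genes was called, and Adarb2 gave -0.20 (SE 0.12, adjusted p = 0.62). Of 14 Vip subtype genes tested none was called, with Calb2 at 0.10 (SE 0.21, adjusted p = 0.92), Cck at 0.13 (SE 0.28, adjusted p = 0.92) and Crh at 0.53 (SE 0.30, adjusted p = 0.57). Cck ranged from 95.3 to 388 CPM between pplCoA replicates alone. The 7 neuropeptide precursors tested gave log2 fold changes above 0, from 0.13 to 2.26, and 0 were called, 1 of them having passed the filter in aplCoA nuclei alone. Among 8 peptide receptors, 11 monoamine and acetylcholine receptors, 10 GABA-A receptor subunits, 30 ion channels, 7 calcium-binding and 5 activity-linked genes tested, 0 were called. In the glutamate receptor list Gria3 was called and 21 others were not, and in the MGE-lineage list Sox6 was called of 4 tested, 2 of which, Sox6 among them, were tested only because they passed the filter in aplCoA nuclei. Of the genes of other GABAergic classes, 3 were tested and 0 called, with Reln at 1.11 (SE 0.32, adjusted p = 0.12). The standard errors, from the replicates of 240 and 178 nuclei, show limited precision, and what limited it was not tested.

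Whether a difference between domains was particular to Vip nuclei was tested as the interaction of class and domain. Of 9544 genes, 5 were called (0.0524%), all positive, meaning a log2 fold change of aplCoA over pplCoA that was more positive in Vip than in other GABAergic nuclei. The interaction was 1.68 ± 0.28 for Ptprm (SE, edgeR adjusted p = 0.017), 1.44 ± 0.24 for Alk (adjusted p = 0.017), 1.45 ± 0.26 for Gria3 (adjusted p = 0.023) and 1.95 ± 0.37 for Sox6 (adjusted p = 0.030). In other GABAergic nuclei the domain difference was -0.05 for Ptprm, -0.32 for Alk, -0.14 for Gria3 and -0.30 for Sox6. It was called lower in aplCoA there for Alk (edgeR adjusted p = 0.032) and Sox6 (adjusted p = 0.013), opposite in sign to the difference in Vip nuclei, and was not called for Ptprm (adjusted p = 0.77) or Gria3 (adjusted p = 0.32). The remaining gene was Grpr (2.75, SE 0.50, adjusted p = 0.025). Between domains within Vip nuclei it was not called (0.28, SE 0.24, adjusted p = 0.77), and the other GABAergic nuclei, with 51 Grpr UMIs in all, held 0.619, 0.595 and 0.145 CPM in aplCoA replicates and 2.45, 3.16 and 3.15 CPM in pplCoA replicates. With at least 3 Vip UMIs required, 0 of the 5 remained called, with adjusted p between 0.075 and 0.91, and 517 genes had an unadjusted p under 0.05. Requiring only 1 Vip UMI, edgeR called 0 genes and 385 had an unadjusted p under 0.05, while DESeq2 called 3 under the main rule. With library 2 of aplCoA replicate 1 alone the interaction was 0.97 for Ptprm, 0.77 for Gria3 and 1.19 for Alk, all uncalled. It was 2.08 for Sox6 and 4.02 for Grpr, both called.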

How the data were processed

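Nuclei were profiled with 10x Genomics 3' chemistry. Per the study's methods and the submitters' notes, the authors aligned the reads to the mouse genome (mm10) with Cell Ranger 5.0.0, intronic reads included, and deposited the unfiltered UMI count of each gene and barcode, without normalization. From 17443221 barcodes, 52201 had at least 1000 genes and 51115 of these at most 30000 UMIs. Of the 32285 gene rows, 78 share a symbol with another row. Groups came from the sample labels, which name biological replicates. The members, gene lists and tests were chosen with earlier results of these data known.

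Counts were summed per replicate over Vip and over other GABAergic nuclei, for genes found in at least 10% of nuclei of either group compared. They were scaled by TMM and tested with edgeR 4.0.16 (quasi-likelihood, R 4.3.3, Benjamini-Hochberg over all genes tested, adjusted p under 0.05). Vip against other nuclei, and the interaction, had the replicate as a block, and the 6 genes of the rule were left out of these comparisons. The domain comparison had no block and did not leave these genes out. The fit was also run on simulated data, the outcome of which is not reported here. Vip-class genes were named as the 12 highest and 12 lowest log2 fold changes among called genes of equal direction in 6 replicates, with at least 20 UMIs per replicate in the higher class. Domain genes were the 12 of largest absolute log2 fold change in each direction without overlap of replicates, interaction genes the 5 of lowest p. List members named beyond those of highest level, and Ptgds, were picked after their values were seen. Exact permutation over replicates served for single values, in Python 3.11.15 (scipy 1.17.1). Co-detection used the mean of 20 random thinnings to 5000 UMIs. Doublets were the highest Scrublet scores (scanpy 1.11.5) at 1% per 1000 nuclei. Biotypes came from GENCODE. Alternatives were DESeq2 1.42.0, its size factors, the likelihood ratio test, limma 3.58.1 on shares, no filter, stricter thresholds, other UMI limits, doublet removal, the study's quality limits, thinned counts, each library of aplCoA replicate 1 alone, a replicate block and each replicate left out. Intervals cover counting error only. Empty droplets and cluster-based quality removal of the study were not repeated. Some genes that met the rules for naming are not reported here.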

Additional observations from a re-analysis of the deposited data

Results flagged for a closer look

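Among 27 groups of values looked at for a replicate far from the others, of which about 1 in 20 stands apart by chance, 2 had such a replicate. The difference in Cck between Vip nuclei with and without Calb2 was -26.9 percentage points in pplCoA replicate 3, where the other 5 replicates lay between -10.5 and -1.35, and the mean without that replicate was -5.89. That replicate rested on 31 nuclei after thinning. The log2 ratio of Calb2 in Vip over other GABAergic nuclei was 4.46 in pplCoA replicate 2, above the other 5 replicates.

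The log2 fold change of aplCoA over pplCoA differed between Vip and other GABAergic nuclei for 5 genes, by the test of the interaction, with 1.68 for Ptprm, 1.44 for Alk, 1.45 for Gria3, 2.75 for Grpr and 1.95 for Sox6 on the log2 scale. For Grpr the domain difference within Vip nuclei was 0.28 and uncalled, while the other GABAergic nuclei were lower in aplCoA. Requiring at least 3 Vip UMIs took the interaction to 0.78 for Ptprm, 1.11 for Alk, 1.06 for Gria3, 2.73 for Grpr and 1.29 for Sox6, all uncalled.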

How the results depend on the processing

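The share of Vip nuclei was lower in aplCoA under every alternative (p between 0.15 and 0.5), with differences of -3.11 to -1.25 percentage points when a replicate was left out, and with the replicate block p was 0.5. The 2564 genes between Vip and other GABAergic nuclei were 1312 at an adjusted p under 0.01 with at least 1.5-fold change and 2192 to 2412 with a replicate left out. Without a minimum share of nuclei 3262 genes were called, 1280 higher and 1982 lower, against 1351 and 1213, and DESeq2 called 2013. Of 138 named or called list genes, 119 kept their call throughout. The 38 genes between domains were 10 by DESeq2, 88 by the likelihood ratio test and 6 at the stricter threshold. They were 12 with library 1 of aplCoA replicate 1 alone and 55 with library 2 alone. With no Sst UMI allowed 23 were called, after thinning 19, at 3 or more Vip UMIs 7 and at 1 or more 0 (865 at an unadjusted p under 0.05). Leaving out a replicate gave 7 to 49 (11 without aplCoA replicate 1, 10 without aplCoA replicate 2, 7 without pplCoA replicate 2). Each of the 24 named domain genes lost its call under at least 1 alternative, and Sox6 turned to -0.10 at 1 or more Vip UMIs. The 5 interaction genes were 3 by DESeq2, 2 with either library of aplCoA replicate 1 alone, 9 with no Sst UMI or without doublets, 34 without a minimum share, and 0 at the stricter threshold, at 1 or more Vip UMIs (385 unadjusted) and at 3 or more. Leaving out a replicate gave 0 to 10, with 0 without pplCoA replicate 2 (470 unadjusted), 10 without pplCoA replicate 1 and 2 without aplCoA replicate 3 or pplCoA replicate 3. The cause was not tested, beyond fewer genes, nuclei or samples where an alternative has them. For Cck with Calb2 the difference was -8.48 without thinning, -4.38 at 8000 UMIs, -8.80 without doublets and -11.0 to -5.89 with a replicate left out, where an exact test over 5 replicates cannot go below p = 0.0625. When at least 2 Cck UMIs were asked for without thinning it was -10.0 (exact p = 0.031), an alternative chosen after seeing the data. For Cnr1 with Cck it was 3.72 without thinning (exact p = 0.0625) and 4.10 at 8000 UMIs (exact p = 0.50), both uncalled, 7.98 to 10.6 with a replicate left out and 9.18 (exact p = 0.0625) when at least 2 Cnr1 UMIs were asked for, an alternative chosen after seeing the data. For Cnr1 with Calb2 leaving out a replicate gave -1.30 to 4.53.

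Replicates of equal number correlated at 0.010, -0.025 and 0.008 in their deviations from the domain means, and those of unequal number at -0.027 to 0.020. No pairing by number was seen in these sums over Vip nuclei. Whether sums over so few nuclei could show a pairing was not tested. A replicate block gave 39 genes between domains, and without it 2467 genes were called between classes and 4 in the interaction. aplCoA replicate 2 held 27 Vip nuclei, and 18.4% of Vip nuclei lay under 5000 UMIs. Their part in the limited precision was not tested.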
